A study of Homo sapiens with 6 samples.

Results

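The genes described here make cholesterol and fatty acids, sense sterols or export them. They were chosen by name as 36 of the 61228 gene symbols of the deposited tables, in 4 groups: 18 enzymes of sterol synthesis, 6 regulators of that synthesis, 5 genes of the liver X receptors (LXR) and sterol efflux, and 7 enzymes of fatty acid synthesis. All 36 passed the filter on low counts that left 15373 genes for testing. They were measured by RNA-seq in HBECs, an immortalized line of human bronchial epithelial cells with a wild-type genotype, labelled HBE cells. All 6 libraries came from cells exposed for 24 h to cockroach extract (CRE), an allergen source. In 3 libraries CRE was given alone, and in 3 it was combined with VAF347, a small-molecule agonist of the aryl hydrocarbon receptor (AhR) that was added before CRE. Cells without CRE and cells given VAF347 alone were not analysed here, so each comparison is between CRE + VAF347 and CRE. The labels do not say whether the 3 libraries of a group came from separate cultures, and p-values measure only the spread between these libraries.

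Cholesterol is built from acetyl-CoA through mevalonate, isoprenoids, squalene and lanosterol. The SREBP transcription factors, encoded by *SREBF1* and *SREBF2*, switch on these enzymes when membrane sterol is low, and INSIG proteins hold SREBP and its escort SCAP in the endoplasmic reticulum when sterol is high. SREBP-1 mainly drives fatty acid enzymes and SREBP-2 mainly drives sterol enzymes, while LXR answers oxysterols and raises the transporters that export cholesterol. In the airway, lipid synthesis supplies membranes and, in alveolar cells, surfactant.

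The libraries held 8873160 to 10750283 estimated fragments, and 2.10% to 2.40% of these came from mitochondrial genes. CRE replicate 3 stood apart from the other CRE libraries, differing from them by 9.21 and 8.96 in chi-square averaged over genes, whereas the other pairs within a group had 1.77 to 2.55 and all pairs exceeded sampling noise. *CYP1A1*, the classical AhR target, rose: it had 0.624 ± 0.159 (SD, n = 3) CPM (counts scaled to library size) with CRE alone and 46.7 ± 3.9 (SD, n = 3) once VAF347 was added, which checks the VAF347 label. Of 8 epithelial markers, *EPCAM*, *CDH1*, *KRT8*, *KRT18* and *KRT19* each had at least 233 TPM (transcript abundance scaled for length and library size) in every library and *KRT5* had at least 7.25 TPM, while the basal cell markers *KRT14* and *TP63* stayed under 0.5 TPM. The airway markers *SCGB1A1* and *MUC5AC* and the adipocyte markers *ADIPOQ* and *LEP* were listed at 0 in all libraries, and the leukocyte marker *PTPRC* did not exceed 0.329 TPM. Of the other airway markers, *FOXJ1* had 0.281 to 0.856 TPM and *MUC5B* did not exceed 0.0114 TPM. The adipocyte marker *PLIN1* did not exceed 0.4955 TPM. Summed over 3 endothelial markers, the level was 7.31 to 7.93 TPM with CRE and 3.95 to 4.67 TPM under CRE + VAF347, nearly all of it *CDH5*, and *PECAM1* did not exceed 0.0659 TPM. The 4 leukocyte markers summed to 21.2 to 24.7 TPM with CRE and 14.3 to 20.1 TPM under CRE + VAF347, nearly all of it *CD68*. The 5 fibroblast markers summed to 19.4 to 20.8 TPM with CRE and 14.9 to 19.0 TPM under CRE + VAF347, nearly all of it *COL1A1*, with *DCN* and *LUM* at 0. The part of these differences in the results was not tested.

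**Figure D1:**
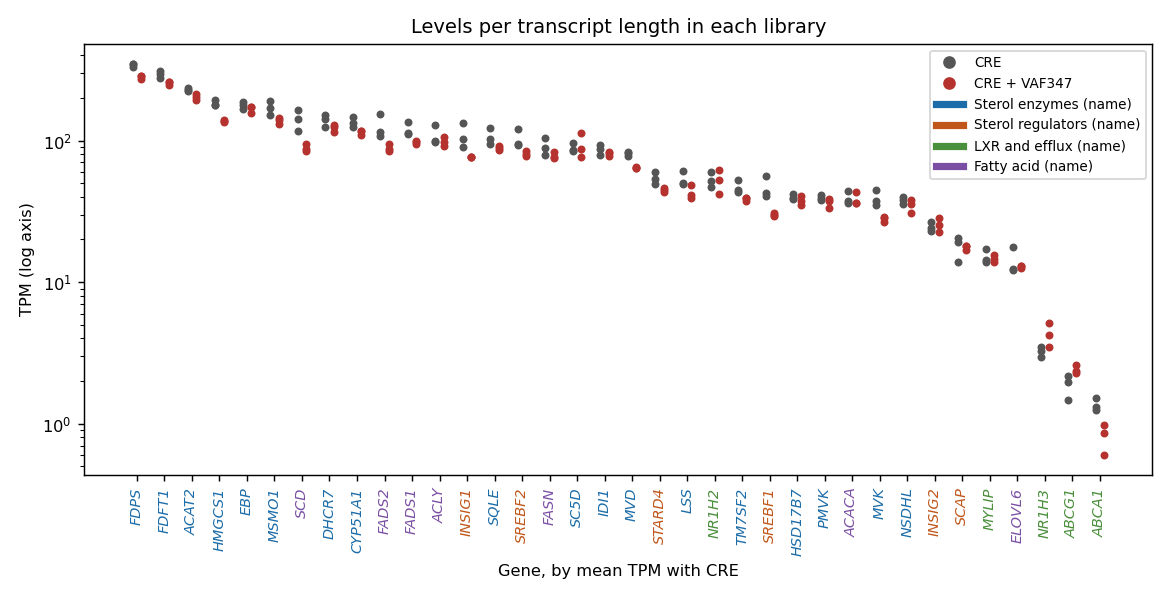
Deposited TPM (log axis) of the 36 genes in each library, ordered by mean TPM with CRE; grey points are CRE libraries, red points are CRE + VAF347 libraries, and the colour of a name gives its group. Sterol enzymes hold the first 6 places, led by FDPS at 343 TPM, and the LXR and efflux genes NR1H3, ABCG1 and ABCA1 lie at the low end.

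Levels per transcript length, in TPM, showed that all 18 sterol enzymes listed were transcribed in this cell line. *FDPS*, which makes farnesyl diphosphate, had the highest level with CRE, at 343 ± 9 (SD, n = 3) TPM, followed by *FDFT1*, the squalene synthase, at 293 ± 15 (SD, n = 3) and *ACAT2*, the cytosolic thiolase, at 229.7 ± 6.6 (SD, n = 3). The CRE values of these genes overlapped neither each other nor those of *HMGCS1*, next at 184 ± 8 (SD, n = 3) TPM. From *HMGCS1* down to *MVD*, at 80.9 ± 2.8 (SD, n = 3), the CRE values of each gene overlapped those of the next, so the order of neighbours in this stretch, which held *SCD*, *FADS2*, *FADS1*, *ACLY*, *INSIG1*, *SREBF2* and *FASN*, was not resolved, while its ends lay apart. Neighbours also overlapped from *STARD4*, at 54.1 ± 5.3 (SD, n = 3), down to *NSDHL*, at 38.0 ± 2.3 (SD, n = 3). *NR1H3*, which encodes LXR-alpha, had 3.24 ± 0.27 (SD, n = 3) TPM, and the cholesterol exporters *ABCG1* and *ABCA1* had 1.88 ± 0.38 (SD, n = 3) and 1.36 ± 0.13 (SD, n = 3). *NR1H2*, which encodes LXR-beta, was the more abundant LXR gene, at 52.8 ± 6.3 (SD, n = 3) TPM.

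VAF347 was accompanied by lower levels across much of this set and by no called rise. Of the 36 genes, 9 fell at an adjusted p under 0.05 in edgeR's quasi-likelihood test, a share of 25.0%, while 5.42% of all genes tested were called and 4.07% were called lower. The members were chosen with earlier results of these data known, so this share describes the list and is not a test of it. In bulk RNA, fewer cells of a type and less RNA per cell cannot be told apart. No member was called higher (0 of 36), against 1.35% of all genes tested; at an unadjusted p under 0.05 edgeR gave 1 higher and 19 lower members (8.87% and 11.9% of all genes tested), and DESeq2 called 0 higher and 8 lower, where 1.55% of its genes were lower. The 9 genes were *HMGCS1* and *MVK* of the sterol enzymes, *INSIG1*, *SREBF1* and *SREBF2* of the regulators, *ABCA1* of the efflux genes, and *SCD*, *FADS1* and *FADS2* of the fatty acid enzymes. With the study's fold threshold added, an absolute log2 fold change over 0.5, *SREBF1*, *ABCA1* and *SCD* passed, 3 of 36 genes, where 1.71% of all genes tested were lower by this rule. The study joined that threshold to a p under 0.05 from DESeq2, not described as adjusted, so its own rule differs. The median log2 fold change was -0.17 over the members and 0.01 over all genes tested. In 21 members every CRE + VAF347 library had a lower CPM than every CRE library, in 2 every one was higher, and in 13 the groups overlapped; over all genes tested the groups did not overlap in 27.3%, with 14.8% lower and 12.5% higher. On deposited TPM, limma called 0 of the 36 genes at an adjusted p under 0.05, where 0.332% of its genes were called lower. At an unadjusted p under 0.05, limma gave 17 members lower, against 7.06% of its genes. Without a filter on low counts 15 members fell (3.63% of 28533 genes), and with the replicate number as a block 8 did (3.62%). The DESeq2 share is over 28531 genes. Both it and the share without a filter include low-count genes, unlike the members, so neither is a like background for them.

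**Figure D2:**
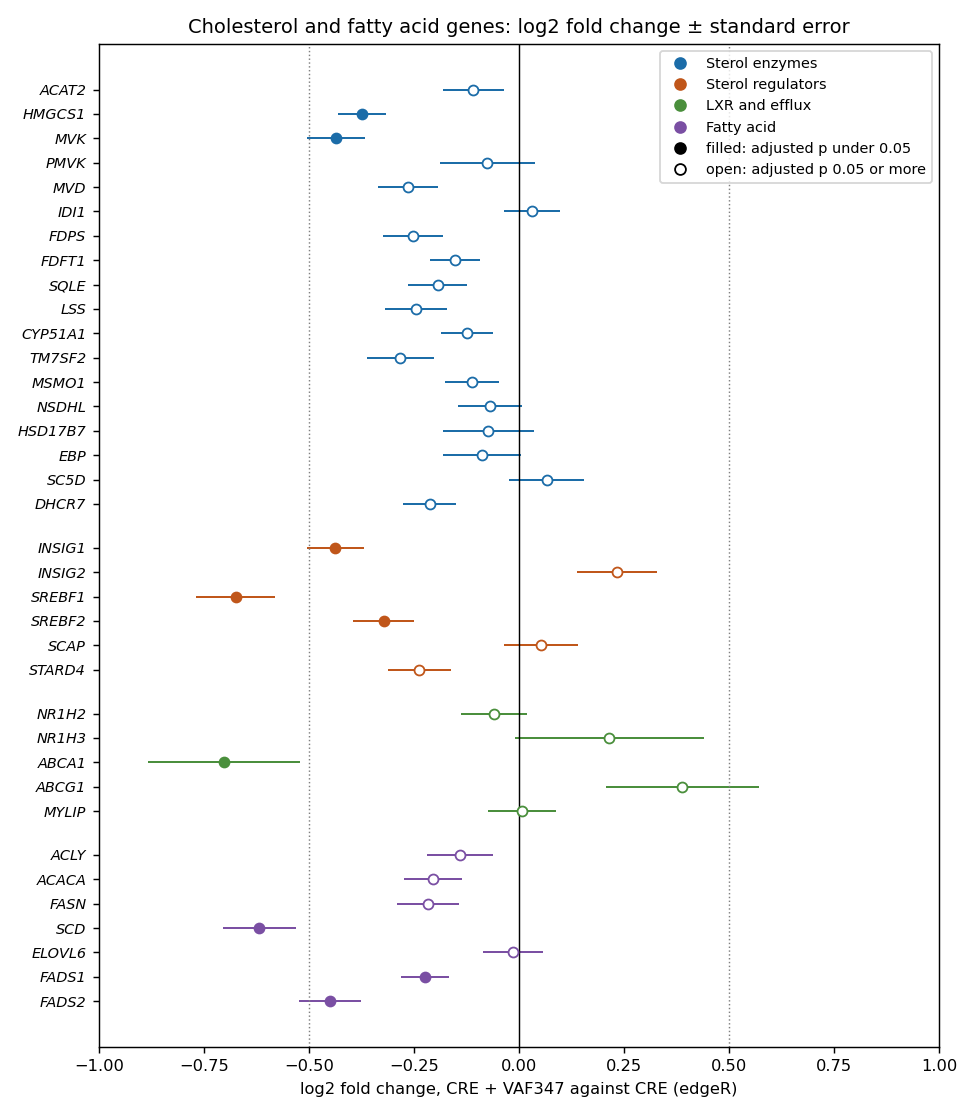
Log2 fold change of each gene between CRE + VAF347 and CRE, from edgeR, with its standard error as the bar; filled points have an adjusted p under 0.05 and dotted lines mark a log2 fold change of 0.5 in either direction. The 9 filled points all lie below 0, and SREBF1, ABCA1 and SCD lie beyond the dotted line.

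Among regulators and sterol enzymes, *SREBF1* had the most negative fold change. *SREBF1*, on chromosome 17 of GRCh38 from 17810399 to 17837002, had 94.6, 89.0 and 116.8 CPM under CRE (replicates 1, 2 and 3) and 64.5, 62.5 and 61.5 CPM under CRE + VAF347. The lowest CRE library thus stood well above the highest library under VAF347, and the log2 fold change was -0.67, with 0.09 as its standard error and 0.00222 as its adjusted p, or 1.59-fold lower. The group means were 100.1 ± 14.7 (SD, n = 3) and 62.8 ± 1.5 (SD, n = 3) CPM. *SREBF2*, on chromosome 22 from 41833105 to 41907306, had 365, 339 and 407 CPM under CRE and 307, 294 and 288 CPM under CRE + VAF347. The groups did not overlap, and the log2 fold change was -0.32, with 0.07 as its standard error and 0.0268 as its adjusted p. Its adjusted p rose to as much as 0.119 when single libraries were left out, and it passed in 2 of those 6 fits.

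*INSIG1*, the SREBP target that retains SCAP when sterol is plentiful, lies on chromosome 7 from 155297776 to 155310235. It had 129, 115 and 134 CPM under CRE and 92.8, 94.0 and 92.2 CPM under CRE + VAF347, a log2 fold change of -0.44, with 0.07 as its standard error and 0.00422 as its adjusted p. Its VAF347 libraries lay within 2 CPM of each other and below each CRE library. *INSIG2*, which encodes the other INSIG protein, had 20.2 ± 1.6 (SD, n = 3) CPM under CRE and 23.7 ± 1.5 (SD, n = 3) under VAF347. The groups of *INSIG2* did not overlap in CPM but overlapped in TPM, and the difference did not pass (log2 fold change 0.23 at an adjusted p of 0.189). *SCAP* itself had 50.8 ± 6.5 (SD, n = 3) and 52.7 ± 0.9 (SD, n = 3) CPM, with overlapping groups. *STARD4*, a soluble carrier that moves cholesterol between membranes, had 50.8 ± 2.5 (SD, n = 3) and 43.1 ± 2.8 (SD, n = 3) CPM without overlap, at an adjusted p of 0.0948. Summed over the 6 regulators, the level was 663 to 783 CPM under CRE and 563 to 585 CPM under CRE + VAF347.

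Of the 7 genes that lead from acetyl-CoA to farnesyl diphosphate, *HMGCS1* and *MVK* fell. *HMGCS1*, the cytosolic HMG-CoA synthase, lies on chromosome 5 from 43287470 to 43313512. It had 216, 212 and 199.8 CPM under CRE and 163, 163 and 158 CPM under CRE + VAF347. The libraries of each group were close to each other and the gap between the groups was wider than either spread, with a log2 fold change of -0.37, with 0.06 as its standard error and 0.00413 as its adjusted p. *MVK*, the mevalonate kinase, on chromosome 12 from 109573255 to 109598125, had 67.8, 60.9 and 67.2 CPM under CRE and 46.9, 49.4 and 48.6 CPM under CRE + VAF347. Its log2 fold change was -0.44, with 0.07 as its standard error and 0.00471 as its adjusted p, again without overlap. *MVK* overlaps *MMAB*, a gene of cobalamin metabolism on the opposite strand that shares its promoter region. *MMAB*, named after its values were seen, had 55.3 ± 4.4 (SD, n = 3) and 44.2 ± 2.2 (SD, n = 3) CPM. In edgeR *MMAB* was also called lower, at a log2 fold change of -0.32 (adjusted p = 0.0359). The strand setting of the counting is not given in the sources used here.

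With the low-count filter, all libraries and no block for replicate number, edgeR called none of the genes downstream of *MVK* on this stretch. With that block *FDPS* passed, at an adjusted p of 0.0499. *MVD*, the diphosphomevalonate decarboxylase, had 80.0 ± 6.7 (SD, n = 3) and 66.6 ± 0.5 (SD, n = 3) CPM (adjusted p = 0.0588, edgeR). *FDPS* had 229.8 ± 20.2 (SD, n = 3) and 193 ± 8 (SD, n = 3) CPM (adjusted p = 0.0710, edgeR). In both genes the groups did not overlap, and both passed without CRE replicate 3, at adjusted p of 0.00217 and 0.00108, and without the low-count filter, at 0.0183 and 0.0101. *ACAT2* and *PMVK*, the phosphomevalonate kinase, had overlapping groups in CPM, with log2 fold changes of -0.11 and -0.08. *IDI1*, the isomerase that makes dimethylallyl diphosphate, had 63.4 ± 3.9 (SD, n = 3) CPM under CRE and 64.7 ± 1.3 (SD, n = 3) under VAF347. Over the 7 genes the median log2 fold change was -0.25.

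Of the 11 genes from squalene synthesis to cholesterol, 0 were called by edgeR with the low-count filter and all libraries, and 0 by DESeq2. At an unadjusted p under 0.05 in edgeR, 5 were lower, as were 11.9% of all genes tested. Without that filter edgeR called 3 of the 11 lower (3.63% of all genes), *LSS* (adjusted p = 0.0169), *TM7SF2* (adjusted p = 0.0389) and *DHCR7* (adjusted p = 0.0453). The log2 fold changes of the 11 genes were -0.28 to 0.07, with 10 of 11 below 0 and a median of -0.12. *TM7SF2*, a sterol C14 reductase, had the most negative value, with 41.2 ± 2.6 (SD, n = 3) CPM under CRE and 33.9 ± 2.0 (SD, n = 3) under VAF347 (log2 fold change -0.28 at an adjusted p of 0.0672 from edgeR). It overlaps *VPS51* on its strand, which had 102.5 ± 4.5 (SD, n = 3) and 86.6 ± 1.4 (SD, n = 3) CPM. In edgeR *VPS51* was itself called lower, at a log2 fold change of -0.24 (adjusted p = 0.0380). *LSS*, the lanosterol synthase, and *DHCR7*, which makes cholesterol from its 7-dehydro precursor, had log2 fold changes of -0.25 and -0.21 at adjusted p of 0.0815 and 0.0807. *SQLE*, the squalene epoxidase and a rate-controlling step, had 160.0, 144 and 170 CPM under CRE and 134, 137 and 144 CPM under CRE + VAF347. The highest VAF347 library of *SQLE* lay just under the lowest CRE library, and the log2 fold change of -0.19 did not pass (adjusted p = 0.139). *FDFT1*, *CYP51A1* and *MSMO1*, which act at squalene synthesis and at the C14 and C4 demethylations of lanosterol, also had groups without overlap, with log2 fold changes of -0.15, -0.12 and -0.11. *NSDHL* and *HSD17B7*, which act with *MSMO1* in the C4 demethylation, and *EBP* and *SC5D*, which act between it and *DHCR7*, had overlapping groups and log2 fold changes of -0.09 to 0.07. Counts of *HSD17B7* may be divided with its near-identical copy *HSD17B7P2*, which had 1.07 ± 0.31 (SD, n = 3) and 1.13 ± 0.10 (SD, n = 3) CPM.

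The number of called sterol enzymes differed with and without CRE replicate 3. Of all 18 enzymes, 2 fell with all libraries, a share of 11.1%, when 4.07% of all genes tested were called lower. Without CRE replicate 3, 9 fell, when 5.54% of all genes tested were called lower. The 7 added genes were *MVD*, *FDPS*, *FDFT1*, *LSS*, *TM7SF2*, *EBP* and *DHCR7*. CRE replicate 3 had the lowest CPM of the CRE libraries in 14 of the 18 enzymes, and CRE replicate 1 the highest in 15. Over the members, 17 fell without that library. In 11 of the 18 enzymes (61.1%) the groups did not overlap and VAF347 was lower, as in 14.8% of all genes tested. Summed over the 18 enzymes, the level was 2333, 2183 and 2082 CPM under CRE and 1947, 1906 and 1945 CPM under CRE + VAF347, a ratio of 0.879. In TPM the corresponding sums were 2303, 2190 and 2386 with CRE and 1960, 1928 and 2007 under CRE + VAF347, so that CRE replicate 3 was the lowest CRE library in CPM and the highest in TPM.

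**Figure D3:**
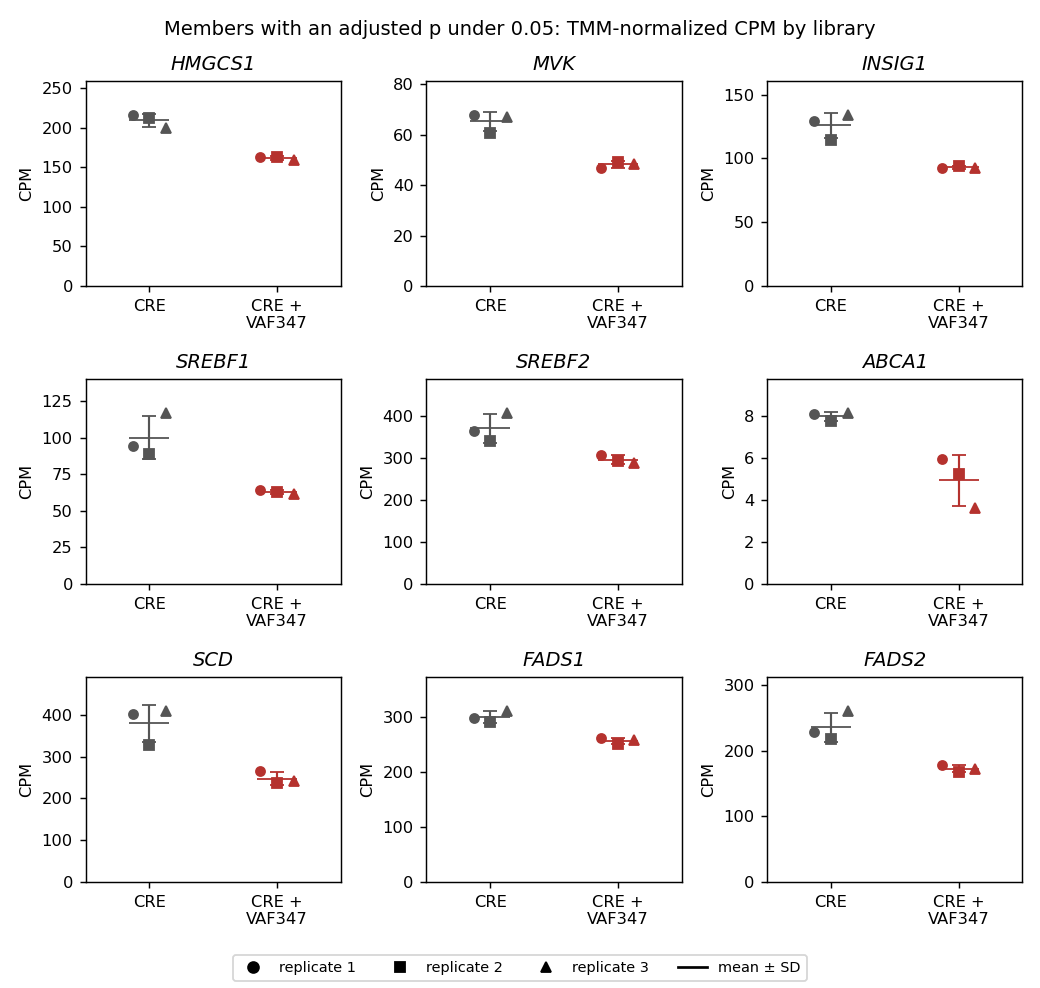
TMM-normalized CPM of the 9 genes with an adjusted p under 0.05, one panel a gene, with each library as a point (replicate 1 circle, 2 square, 3 triangle) and the group mean ± SD as the bar; axes start at 0. In all 9 panels the CRE + VAF347 points lie below the CRE points, from 1.17-fold for FADS1 to 1.63-fold for ABCA1 in the fitted ratio.

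Of the fatty acid genes, *SCD*, *FADS1* and *FADS2* were called. *SCD*, the stearoyl-CoA desaturase that makes oleate, lies on chromosome 10 from 100347233 to 100364826 and had 401, 329 and 409 CPM under CRE. With CRE + VAF347 it had 265, 236 and 241 CPM, below each CRE library. Its log2 fold change was -0.62, with 0.09 as its standard error and 0.00213 as its adjusted p, or 1.53-fold lower. *FADS2*, the delta-6 desaturase of polyunsaturated fatty acids, on chromosome 11 from 61792980 to 61867354, had 229, 218 and 260.0 CPM under CRE and 178, 167 and 172 CPM under CRE + VAF347. That difference had a log2 fold change of -0.45, with 0.07 as its standard error and 0.00528 as its adjusted p. *FADS1*, the delta-5 desaturase, on the same chromosome from 61799627 to 61829318, had 298, 289.8 and 310.1 CPM under CRE and 260.4, 251 and 258 CPM under CRE + VAF347, also without overlap. Its log2 fold change was -0.22, with 0.06 as its standard error and 0.0462 as its adjusted p, and the call held in 1 of the 6 fits without a library, that without CRE replicate 3. *FADS1* and *FADS2* overlap on opposite strands, and *FEN1*, which overlaps *FADS2* on its strand, had 257.9 ± 5.1 (SD, n = 3) and 256.0 ± 2.5 (SD, n = 3) CPM.

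Of the other 4 fatty acid genes, edgeR with the low-count filter and DESeq2 called none. At an unadjusted p under 0.05 in edgeR, 2 were lower, as were 11.9% of all genes tested. *FASN*, the fatty acid synthase, had 616, 580.5 and 692 CPM under CRE and 554, 511 and 559.9 CPM under CRE + VAF347, and *ACACA*, the acetyl-CoA carboxylase that feeds it, had 172 ± 15 (SD, n = 3) and 149 ± 1 (SD, n = 3) CPM. In both genes the groups did not overlap in CPM but overlapped in TPM, and the log2 fold changes of -0.22 and -0.21 did not pass (adjusted p of 0.123 and 0.114 from edgeR). Without the low-count filter *FASN* passed, at an adjusted p of 0.0233. *ACLY*, which makes cytosolic acetyl-CoA from citrate for both routes, had a log2 fold change of -0.14 with overlapping groups. *ELOVL6*, the elongase of saturated chains, had 38.7 ± 1.7 (SD, n = 3) and 38.3 ± 0.7 (SD, n = 3) CPM. Of the 7 genes, 3 fell (42.9%), when 4.07% of all genes tested were called lower, and the median log2 fold change was -0.22. CRE replicate 3 had the highest CPM of the CRE libraries in 6 of the 7 genes and CRE replicate 2 the lowest in 7 of 7. Without CRE replicate 3 the median was -0.14, with 3 genes called.

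The LXR and efflux genes did not share a direction. *ABCA1*, which loads cholesterol and phospholipid onto apolipoprotein A-I, lies on chromosome 9 from 104781006 to 104928155 and had counts of 78, 79 and 87 under CRE, falling to 53, 50 and 36 under CRE + VAF347. In CPM this was 7.99 ± 0.21 (SD, n = 3) and 4.93 ± 1.21 (SD, n = 3), with the lowest value in CRE + VAF347 replicate 3. Its log2 fold change of -0.70 (standard error 0.18) had the largest size of the 36, and its adjusted p of 0.0475 was the closest to the threshold. The call was lost in 5 of the 6 fits without a library (adjusted p up to 0.164) and in DESeq2 (adjusted p = 0.168). *ABCG1*, which exports cholesterol to mature lipoprotein particles, had counts of 41, 33 and 44 under CRE, set against 44, 46 and 54 under CRE + VAF347. In CPM its groups did not overlap and VAF347 was higher, opposite to *ABCA1*, but the log2 fold change of 0.39 (standard error 0.18) did not pass (adjusted p = 0.253). *NR1H3* and *NR1H2* had overlapping groups, with log2 fold changes of 0.22 (standard error 0.22) and -0.06 (standard error 0.08). *MYLIP*, an LXR target that marks lipoprotein receptors for degradation, had 25.5 ± 0.7 (SD, n = 3) and 25.6 ± 1.0 (SD, n = 3) CPM. The median of the 5 genes was 0.007. At counts of 24 to 87 a library, changes in *NR1H3*, *ABCG1* and *ABCA1* were measured with standard errors of 0.18 to 0.22, against 0.06 to 0.11 for the other members.

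**Figure D4:**
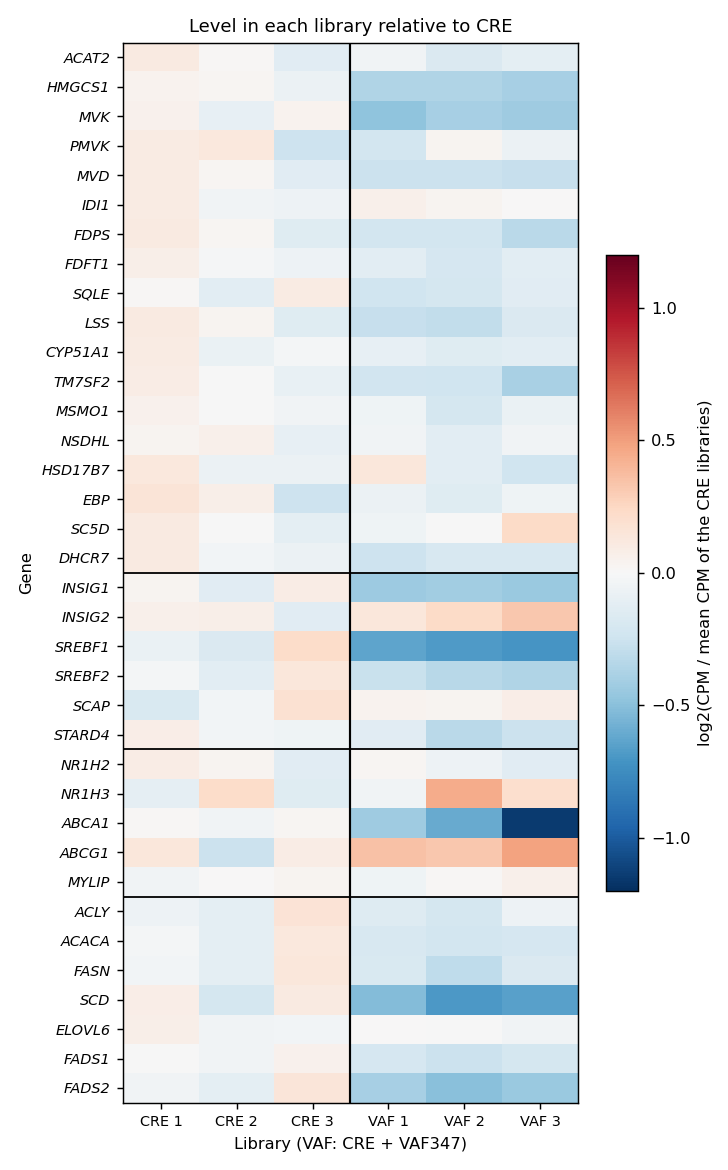
Log2 ratio of the CPM in each library to the mean CPM of the CRE libraries, with genes as rows in the order sterol enzymes, regulators, LXR and efflux, and fatty acid, separated by lines; red is above and blue is below that mean. SREBF1, SCD and ABCA1 form the darkest blue rows under VAF347, and INSIG2, NR1H3 and ABCG1 hold the strongest red cells, with NR1H3 near the mean in replicate 1.

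Library medians summarise these patterns on the log2 scale, relative to the CRE mean of each gene. For the sterol enzymes it stood at 0.10, -0.005 and -0.08 for CRE (replicates 1, 2 and 3) and at -0.17, -0.20 and -0.13 for CRE + VAF347. For the fatty acid genes it was -0.02, -0.11 and 0.13 with CRE and -0.19, -0.26 and -0.20 under CRE + VAF347. By these medians of CPM, CRE replicate 3 stood lowest among CRE libraries for the sterol enzymes and highest for the fatty acid genes. The CRE + VAF347 libraries stayed below each CRE library in both groups. In summed TPM, CRE replicate 3 was the highest CRE library for both groups, at 2386 for sterol enzymes and 747 for fatty acid genes. Among the 11110 tested genes with a mean log2 CPM over 3, log2 fold change and transcript GC content had a Spearman's rho of -0.35, across genes that are not independent replicates. The median GC content was 50.4% for the sterol enzymes and 53.9% for the fatty acid genes, against 50.1% for all genes tested. With an offset for GC content in each library, 7 members fell where 3.10% of all genes tested were called lower: *SREBF2* (log2 fold change -0.28, adjusted p = 0.0729), *FADS1* (-0.18, adjusted p = 0.121) and *ABCA1* (-0.71, adjusted p = 0.0515) did not pass, and *STARD4* did (log2 fold change -0.32 at an adjusted p of 0.0312).

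The sequences just around the start sites of called members are shown for 7 of the 9, because SREBP factors act together with NF-Y at many of these promoters, and LXR acts at *ABCA1*. RefSeq promoter windows on GRCh38.p14, from 250 bases before to 50 bases after the annotated start, were matched for 31 of the 36 genes. Each window was searched on both strands for TCACNCCAC, a form of the sterol regulatory element SRE-1, for CCAAT, the NF-Y box, and for GGTNA, any 5 bases, then GGTCA, a form of the direct repeat read by LXR. The matches are in capitals, and the windows run 5′ to 3′ along the gene's strand. They lie at chr22:41832855-41833154 (plus strand) for *SREBF2*, chr7:155297628-155297927 (plus strand) for *INSIG1*, chr5:43313363-43313662 (minus strand) for the upstream start of *HMGCS1*, chr12:109573544-109573843 (plus strand) for *MVK*, chr10:100346983-100347282 (plus strand) for *SCD*, chr9:104928106-104928405 (minus strand) for *ABCA1* and chr17:17836937-17837236 (minus strand) for *SREBF1*, which is shown as a called gene with no match.
SREBF2: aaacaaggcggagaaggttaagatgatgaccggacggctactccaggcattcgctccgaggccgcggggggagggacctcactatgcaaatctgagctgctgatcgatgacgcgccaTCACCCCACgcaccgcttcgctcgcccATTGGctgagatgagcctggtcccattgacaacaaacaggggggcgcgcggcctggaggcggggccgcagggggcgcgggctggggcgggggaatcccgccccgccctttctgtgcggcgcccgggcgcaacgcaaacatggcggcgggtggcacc
INSIG1: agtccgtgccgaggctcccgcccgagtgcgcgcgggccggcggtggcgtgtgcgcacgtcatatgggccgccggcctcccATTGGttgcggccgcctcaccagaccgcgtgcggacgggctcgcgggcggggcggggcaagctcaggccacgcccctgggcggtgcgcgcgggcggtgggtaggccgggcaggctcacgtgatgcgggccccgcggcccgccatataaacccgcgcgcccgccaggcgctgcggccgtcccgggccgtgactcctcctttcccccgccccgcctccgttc
HMGCS1: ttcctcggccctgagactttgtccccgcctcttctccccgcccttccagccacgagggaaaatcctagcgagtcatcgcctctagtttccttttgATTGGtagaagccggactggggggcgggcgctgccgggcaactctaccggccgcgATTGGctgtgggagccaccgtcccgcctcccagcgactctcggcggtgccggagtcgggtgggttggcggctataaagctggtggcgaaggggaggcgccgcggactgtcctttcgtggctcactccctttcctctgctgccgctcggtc
MVK: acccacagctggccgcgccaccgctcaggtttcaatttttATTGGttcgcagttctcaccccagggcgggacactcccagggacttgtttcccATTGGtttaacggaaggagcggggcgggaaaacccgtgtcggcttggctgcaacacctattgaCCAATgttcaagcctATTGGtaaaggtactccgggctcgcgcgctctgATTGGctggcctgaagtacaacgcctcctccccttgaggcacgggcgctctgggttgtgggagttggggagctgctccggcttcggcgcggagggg
SCD: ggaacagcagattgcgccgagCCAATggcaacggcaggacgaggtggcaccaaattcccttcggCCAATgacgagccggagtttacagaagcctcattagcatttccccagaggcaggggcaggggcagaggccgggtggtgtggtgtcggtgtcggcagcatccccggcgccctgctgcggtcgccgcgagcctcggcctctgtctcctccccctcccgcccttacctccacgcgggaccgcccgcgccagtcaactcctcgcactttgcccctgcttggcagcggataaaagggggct
ABCA1: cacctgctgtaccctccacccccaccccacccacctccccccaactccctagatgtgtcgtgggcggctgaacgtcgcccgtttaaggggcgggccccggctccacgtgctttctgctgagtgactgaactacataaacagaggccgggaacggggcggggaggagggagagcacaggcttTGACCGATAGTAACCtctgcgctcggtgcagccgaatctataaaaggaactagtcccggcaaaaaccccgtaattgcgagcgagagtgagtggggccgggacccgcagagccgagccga
SREBF1: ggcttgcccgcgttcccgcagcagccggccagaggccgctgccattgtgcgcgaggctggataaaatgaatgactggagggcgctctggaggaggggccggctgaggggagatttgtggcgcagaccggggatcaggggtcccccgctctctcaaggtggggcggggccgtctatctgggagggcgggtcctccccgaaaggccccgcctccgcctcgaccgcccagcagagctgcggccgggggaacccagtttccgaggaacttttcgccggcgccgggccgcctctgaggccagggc

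The window of *SREBF2* was the only one of the matched member windows with the SRE-1 form, beginning 133 bases before the start, with an NF-Y box 106 bases before it. This form was present for 1.39% of the 27305 genes with a window. NF-Y boxes were present in 22 of the 31 members (39.7% of all genes with a window and 42.6% of those tested), and in 13 of the 15 sterol enzymes that were matched. They were present in 6 of the 9 called genes. *MVK* held 5 of them, as did *NSDHL*, which was not called, and *MSMO1*, also not called, held 4. Among called genes *HMGCS1* held 2 in the window printed and none in that of its downstream start, and *SCD* held 2. *FADS2*, not printed, held 1, beginning 6 bases after the start, and *SREBF1* and *FADS1* held none of the 3 motifs. The LXR repeat was found in the window of *ABCA1* alone among the members, 69 bases before the start, and in 0.300% of all genes with a window. GCGTG, the core of the AhR element, was present in 25 of the 31 members and in 6 of the 9 called genes, against 58.2% of the tested genes with a window. The longer AhR element TNGCGTG was present in 5 of the 31 members and 1 of the 9 called genes, against 9.34% of those tested. A match describes letters only and does not show binding in these cells.

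Further genes of the same routes, listed by name, were counted in the same fit. Of 24 other sterol-handling genes 22 were tested, and 1 fell: *CYB5R3*, which reduces cytochrome b5 for lipid desaturation, had 106.8 ± 5.2 (SD, n = 3) CPM under CRE and 89.9 ± 2.3 (SD, n = 3) under VAF347, a log2 fold change of -0.25 (adjusted p = 0.0377, edgeR). The call was lost in 5 of the 6 fits without a library (adjusted p of 0.0508 to 0.151), with the block (0.0653), with the GC offset (0.146) and in DESeq2 (0.103). A count of 1 in 22 is 4.55%, close to the 4.07% of all genes tested, and the median log2 fold change was 0.04. Of 30 other fatty acid genes 28 were tested and 3 fell, a share of 10.7%, with a median of 0.007. These were *SCD5*, the second human stearoyl-CoA desaturase gene, at -0.34 (adjusted p = 0.00669, edgeR), *MLXIPL*, which encodes the carbohydrate-responsive factor ChREBP, at -0.40 (adjusted p = 0.0355), and *LPIN1*, a phosphatidate phosphatase of triglyceride synthesis, at -0.43 (adjusted p = 0.0351). *SCD5* went from 170.1 ± 7.2 (SD, n = 3) to 134.7 ± 1.0 (SD, n = 3) CPM. It was called in each of the 6 fits without a library, while *LPIN1* and *MLXIPL* were each called in 2 of them. *SCD5* and *LPIN1* were also called in DESeq2, with the block and with the GC offset. *MLXIPL* was lost in DESeq2 (adjusted p = 0.147), with the block (0.063) and with the GC offset (0.111). Of 14 LXR partners and further LXR targets 12 were tested, and edgeR and DESeq2 called 0 in either direction, with 0 at an unadjusted p under 0.05 in edgeR. With all libraries and the low-count filter, edgeR called no gene of these 3 lists higher.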

How the data were processed

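Poly(A) RNA of HBECs was sequenced as read pairs, and the labels assign 3 libraries to CRE and 3 to CRE + VAF347. The authors made the deposited expected counts and the deposited TPM with Salmon, listed per gene symbol, on hg38 per the labels. The Salmon version, annotation and strand setting are not given in the sources used here. All 61228 symbols were found in GENCODE v44, which gave positions and GC content. The authors' own table of fold changes and p-values was not used, and 0 columns were left unmatched.

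Of the count values 14.5% held decimals, and all were rounded. The fit used edgeR 4.0.16 under R 4.3.3, after filterByExpr and TMM scaling, with the quasi-likelihood test by group with Benjamini-Hochberg adjustment over all genes tested. A gene was called at an adjusted p under 0.05, and fell or rose only if called. The standard error is the size of the log2 fold change divided by the square root of F. CPM are TMM-normalized. Levels between genes were compared in TPM only. An exact permutation test of 3 against 3 cannot go below 0.1, and tests of single genes therefore come from the edgeR model. The members and lists were chosen with earlier results of these data known, so no set test was run. All 36 members are named, with up to 3 called genes in each direction for the other lists. On simulated data with 200 changed genes, edgeR found 189 among 15164 genes and wrongly called 20. Whether edgeR finds differences as small as those of the members was not tested separately.

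Alternatives were DESeq2 1.42.0 (its size factors, and its Wald test), low counts left in, at least 10 counts required throughout, a block for replicate number, a GC offset, the fold threshold of 0.5 on the log2 scale, leaving out each library, and limma 3.58.1 on log2(TPM + 1) or log2(TPM + 0.1) with a mean TPM of at least 1, or without that filter.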

Additional observations from a re-analysis of the deposited data

How the results depend on the processing

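*HMGCS1*, *MVK*, *INSIG1*, *SREBF1*, *SCD* and *FADS2* passed an adjusted p under 0.05 in each of the 12 alternatives fitted to counts, including the 6 without a library. In the 3 fits of limma to TPM 0 members passed, and their lowest adjusted p at log2(TPM + 1) with the filter was 0.0678, for *HMGCS1*. With limma the called genes over all genes tested numbered 87 at log2(TPM + 1), 85 at log2(TPM + 0.1) and 32 without the filter, against 833 in the fit reported, and 0 sterol enzymes, 0 regulators, 0 LXR and efflux genes and 0 fatty acid genes were called. The sterol enzyme median was then -0.21, -0.21 and -0.21 (-0.14 as reported), and the LXR and efflux median -0.032, -0.033 and -0.032 (0.007 as reported). DESeq2's Wald test called 555 genes and 0 of the LXR and efflux genes, where *ABCA1* was lost. Without a filter on low counts 1586 genes and 7 sterol enzymes were called. With the fold threshold 340 genes, 0 sterol enzymes, 1 regulator and 1 fatty acid gene remained past the rule. The GC offset called 0 LXR and efflux genes.

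Without single libraries, the genes called over all genes tested were fewest at 305 (CRE + VAF347 replicate 3 left out) and most at 1287 (CRE replicate 3 left out), and numbered 622 without CRE replicate 1, 501 without CRE replicate 2, 381 without CRE + VAF347 replicate 1 and 338 without CRE + VAF347 replicate 2. Called sterol enzymes ran from 2 to 9, called LXR and efflux genes from 0 to 1, and the LXR and efflux median from -0.026 to 0.026. *ABCA1* and *FADS1* were called only without CRE replicate 3 among these fits, and *SREBF2* only without CRE replicate 2 or CRE replicate 3. The cause of these shifts was not tested.

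With the replicate number as a block, 726 genes, 8 members and 0 LXR and efflux genes were called: *ABCA1* (log2 fold change -0.71, adjusted p = 0.0635) and *FADS1* (-0.22, adjusted p = 0.0610) did not pass, with folds close to those reported (-0.70 and -0.22), and *FDPS* did (-0.25, adjusted p = 0.0499). Deviations of same-numbered libraries correlated at 0.053, 0.033 and 0.015, so the numbers were not taken as pairs, although each library correlated best with its own number.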
